A study of Mus musculus with 16 samples.

Results

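Housing at 5 °C for 2 days was compared with housing at 30 °C, the thermoneutral condition. The data are single-cell RNA-seq of the stromal vascular fraction of interscapular brown fat from C57BL6J mice. Housing at 30 °C was recorded as 1 week, from a label whose duration can be read in more than 1 way. The comparison took the 4 libraries labelled cold2 and the 4 labelled TN, which are 8 of the 16 libraries of the series. They held 66622 of its 109723 cells, 38906 from cold2 and 27716 from TN. The other libraries came from 22 °C and from 7 days at 5 °C and are given only as levels beside some results. A second table held the cells to which the authors had given a class name, and in it the comparison had 3 cold2 libraries with 6179 cells against 4 TN libraries with 8215 cells, because cold2 replicate 1 has no cells there. All groups share the strain, the digestion, the removal of the floating adipocyte layer and a dead cell removal step. The labels do not say whether libraries of one group came from separate mice or pools, so the p-values measure the spread between these libraries, which may be technical.

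Brown fat burns fuel to make heat, and cold is its natural stimulus. The stromal vascular fraction is what remains of the digested tissue once the floating adipocytes are taken off, chiefly vessel wall cells, endothelial cells, progenitors, nerve sheath cells and immune cells. Cold is known to set off division of progenitor and endothelial cells in this tissue. A phase score summarises a list of genes used in DNA synthesis (S score) or in the preparation and course of mitosis (G2M score) against control genes of similar level in the same cell, so a value near 0 or below marks a cell that does not use the list more than its controls. The mitochondrial share is the percentage of a cell's transcript tags (UMIs) that come from mitochondrial genes, and complexity is the log10 number of genes divided by the log10 number of UMIs.

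Each value below is a median or mean over the cells of 1 cluster in 1 library, and libraries were the replicates. Of the 61 clusters of all cells, 19 had at least 20 cells in each of the 8 libraries and were tested. They held 56.3% of the 66622 cells. By the names in the second table, cells of clusters 4, 9 and 10 were mainly VSM (vascular smooth muscle), cluster 12 ECAP, cluster 13 AP (adipocyte progenitors), clusters 18 and 22 EC (endothelial cells) and cluster 24 VSM-AP. The other 11 tested clusters held no named cell. Of the 28 named clusters, 9 could be tested: VSM_0, VSM_1, VSM_2, VSM_3, VSM_5, VSM-AP_6, AP_9, EC_11 and ECAP_4. The names are the authors' and were not checked against marker genes, since no gene values were analysed here. Pairs of the 8 libraries shared 2 to 39 cell barcodes.

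Cold2 replicate 1 stood apart from the other 7 libraries as a whole and far less within clusters. Its median mitochondrial share over all cells was 29.1%, against 2.47% to 4.45% in the other libraries, and 54.2% of its cells lay at 20% or more. The cells behind this sat mostly outside the tested clusters. Cluster 11, which held 25.6% of its cells, had a median of 35.4%, cluster 20 with 13.7% of its cells had 48.8%, and cluster 26 with 9.63% had 75.8%. The 4 TN libraries together had 1, 79 and 12 cells in these 3 clusters, too few to compare. Named cells of the other libraries in clusters 11 and 20 were mainly Adipo (99.5% and 60.9% of them), and those in cluster 26 VSM-AP (53.6%). Over its 6994 cells in untested clusters the median was 36.7%, and over its 3007 cells in tested clusters it was 3.97%. The same split held for depth, with medians of 13765 and 3364 UMIs per cell.

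With the 19 clusters given equal weight, the mitochondrial share of cold2 replicate 1 was 4.64%. The other cold2 libraries then stood at 2.84%, 4.23% and 4.03%, and the TN libraries at 3.39%, 3.80%, 4.17% and 4.56%. The groups overlapped, with a difference of -0.03 on the log2 scale (two-sided exact permutation test over libraries, p = 0.886). Depth at equal weights ranged from 3339 to 4397 UMIs in cold2 and from 3796 to 6128 in TN, and the groups overlapped as well (exact permutation p = 0.371). These 2 tests belong to a family of 20 library-level tests, in which the smallest adjusted p was 0.381.

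**Figure D1:**
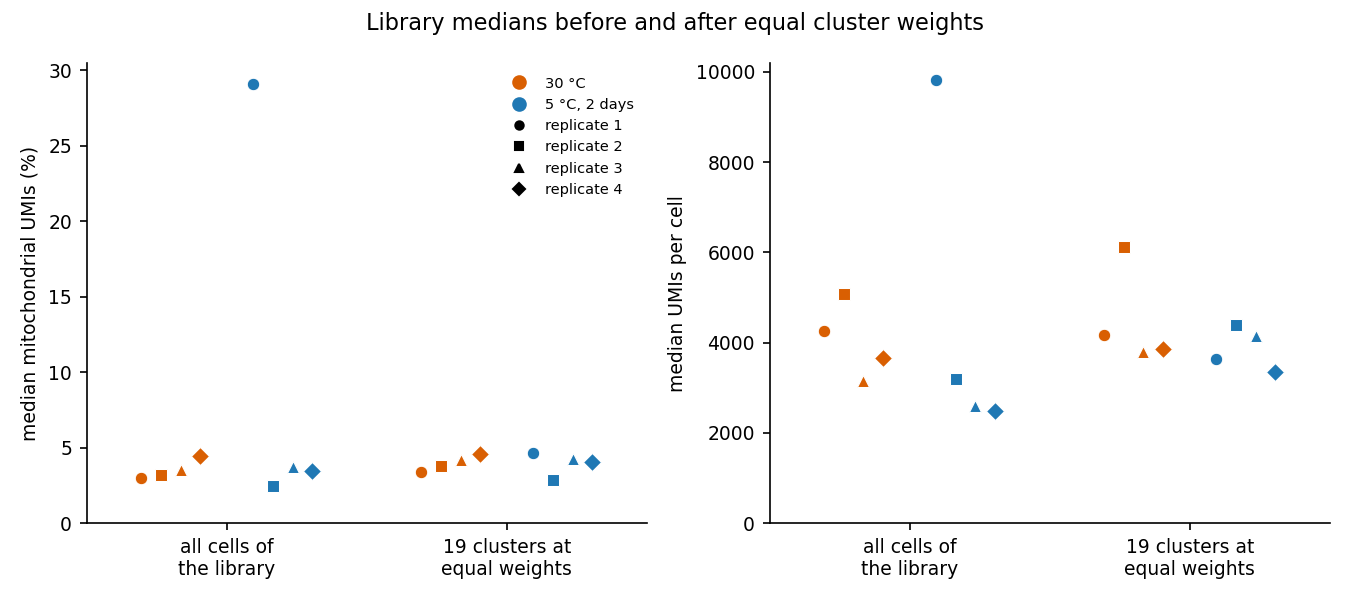
Median mitochondrial UMIs in percent (left) and median UMIs per cell (right) for each of the 8 libraries, over all its cells and over the 19 tested clusters at equal weights; colour gives the condition and shape the replicate number. Cold2 replicate 1 lies at 29.1% and 9819 UMIs over all cells, and at 4.64% and 3635 UMIs at equal cluster weights.

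Within clusters, mitochondrial share, depth and complexity did not pass the test anywhere. None of the 19 clusters of all cells (0%) and none of the 9 named clusters (0%) passed in any of these 3 measures (limma, Benjamini-Hochberg adjustment). At an unadjusted p below 0.05 the counts were 1, 0 and 3 of 19 for mitochondrial share, depth and complexity, and 1, 0 and 1 of 9 in named cells. The smallest adjusted p-values were 0.42, 0.555 and 0.247 for all cells, and 0.221, 0.696 and 0.184 for named cells. A missed threshold does not show that the values were alike, since the standard error for a cluster's mitochondrial share was 0.19 on the log2 scale and that for its depth 0.26.

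The estimate of mitochondrial share closest to the threshold among all cells was that of an endothelial cluster. Cluster 22, whose named cells are mainly EC_11, had medians of 4.05%, 4.87%, 6.04% and 6.32% in TN and of 3.61%, 2.80%, 3.13% and 5.94% in cold2. Of its 4 cold2 values 3 lay below every TN value, and replicate 4 lay among them. Its difference was -0.45 ± 0.19 on the log2 scale (SE, limma, adjusted p = 0.42), and it was -0.42 among replicates 1 and 2 and -0.47 among replicates 3 and 4. The smooth muscle cluster 9 (-0.21 ± 0.19) and the endothelial cluster 18 (-0.14 ± 0.19) came next, with adjusted p = 0.952 for each in limma. Over all 19 clusters 12 estimates were above 0 and 7 below, with a median of 0.02.

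The named cells of VSM-AP_6 had the highest mitochondrial share of the 9 tested clusters in both conditions. Its medians were 18.1%, 20.9%, 19.3% and 30.6% in TN and 24.0%, 33.2% and 37.4% in cold2, which gives 22.2% ± 5.67 (SD, n = 4) and 31.5% ± 6.88 (SD, n = 3). The groups overlapped through TN replicate 4. The difference of 0.50 ± 0.22 did not pass (limma, adjusted p = 0.221), but it passed without cold2 replicate 2 (0.68, adjusted p = 0.00463) and when cells were summarised by their mean (0.67, adjusted p = 0.0235). Complexity in the same cells was 0.881 ± 0.00956 in TN and 0.866 ± 0.00796 in cold2 and did not pass (limma, adjusted p = 0.184). It passed in limma when cells were summarised by their mean (-0.0332, adjusted p = 3.13e-05) and without TN replicate 2 (-0.0188, adjusted p = 0.0188). It also passed in cells above the highest UMI floor (adjusted p = 0.0310) and in an added limma fit over 5 classes (adjusted p = 0.0498). Apart from the fit over classes, 12 of its 15 alternatives did not pass. In the table of all cells, cluster 24, 80.1% of whose named cells are VSM-AP_6, had a difference of 0.07 ± 0.19 (limma, adjusted p = 0.952).

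ECAP cells had the lowest mitochondrial share of the tested named clusters, 1.64% ± 0.262 in TN (SD, n = 4) and 1.40% ± 0.387 in cold2 (SD, n = 3). Their complexity was 0.896, 0.886, 0.889 and 0.889 in TN and 0.901, 0.902 and 0.897 in cold2. Every cold2 library lay above every TN library, as in 1 of 9 clusters (11.1%), yet the difference of 0.0104 ± 0.00642 did not pass (limma, adjusted p = 0.499). Cluster 12, made up of largely the same cells with cold2 replicate 1 added, had a difference of 0.0108 ± 0.00481 (limma, adjusted p = 0.247) and was the 1 cluster of 19 (5.26%) without overlap in this measure. Unnamed clusters 16 and 19 had complexity differences of 0.0105 and 0.0106 (limma, adjusted p = 0.247 for each), and named VSM_0 had -0.00749 (limma, adjusted p = 0.531).

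The mean S score rose in 6 of the 19 clusters of all cells (31.6%) and fell in none, and 17 of the 19 estimates lay above 0 with a median of 0.0127. In 4 of the 19 (21.1%) the groups did not overlap. The risers were the endothelial cluster 18, the progenitor cluster 13, the smooth muscle cluster 9, the VSM-AP cluster 24 and the unnamed clusters 7 and 19. The mean G2M score rose in 7 of 19 (36.8%) and fell in none, with 14 estimates above 0, a median of 0.00711 and 5 clusters without overlap (26.3%), 1 of them lower in cold2. Clusters 13 and 18 rose in both scores, beside the unnamed clusters 2, 5, 14, 15 and 16 in G2M. At equal cluster weights the S score was -0.0247, -0.0191, -0.0153 and -0.0171 in the TN libraries and -0.0115, -0.00950, -0.000927 and 0.00112 in cold2. All cold2 values lay above all TN values. A test of 4 against 4 libraries cannot give an exact permutation p below 0.0286, the value found, and its adjusted p over the 20 tests was 0.381.

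The number of clusters that passed changed when single libraries were left out. For the S score no cluster passed without TN replicate 1, without TN replicate 2 or without cold2 replicate 3, 4 passed without any one of the other cold2 libraries, 5 without TN replicate 3 and 8 without TN replicate 4. Where none passed, the S difference of cluster 18 was 0.0660, 0.0662 and 0.0589, against 0.0673 with all libraries. With any 1 library left out it ran from 0.0489 to 0.0815. For the G2M score no cluster passed without cold2 replicate 2 and 8 passed without cold2 replicate 1, the library with the high mitochondrial share, while leaving out any other library left 1 to 4. With each cluster's own spread in place of a shared one, an alternative added after the data were seen, 0 clusters passed for S and 2 for G2M.

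**Figure D2:**
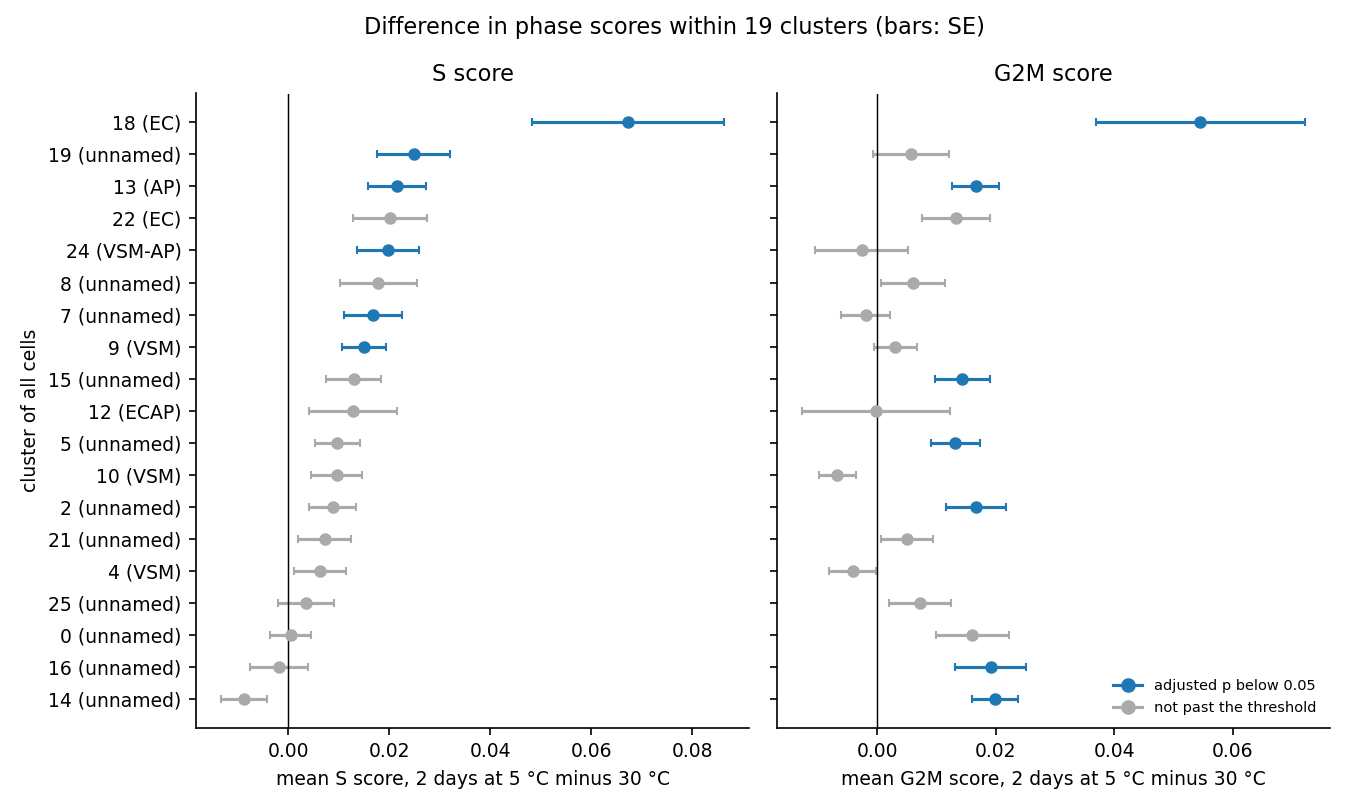
Difference in mean S score (left) and mean G2M score (right) between 2 days at 5 °C and 30 °C in each of the 19 tested clusters of all cells, with the standard error from limma as bars and the main named class of each cluster in brackets. Cluster 18 lies farthest to the right in both panels, at 0.0673 and 0.0545, and its bars are among the widest.

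Endothelial cluster 18 had the highest estimates for both scores. Its mean S scores were -0.0424, -0.0420, -0.0284 and -0.0413 in TN and -0.0139, -0.00927, 0.0542 and 0.0841 in cold2. All cold2 libraries lay above all TN libraries, and replicates 3 and 4 of cold2 lay well above replicates 1 and 2. The difference was 0.0673 ± 0.0190 (limma, adjusted p = 0.0312), with 0.0307 among replicates 1 and 2 and 0.104 among replicates 3 and 4. Its G2M scores were -0.0438, -0.0547, -0.0525 and -0.0509 in TN and -0.0458, -0.0154, 0.0296 and 0.0476 in cold2. Here cold2 replicate 1 lay among the TN libraries and the other 3 lay above them, with a difference of 0.0545 ± 0.0176 (limma, adjusted p = 0.035). Without cold2 replicate 1 the G2M difference was 0.0710 (adjusted p = 0.00286), and without any one of the other 7 libraries it did not pass, with adjusted p-values from 0.0625 to 0.0998. The S difference did not pass without TN replicate 1, TN replicate 2 or cold2 replicate 3 (limma, adjusted p = 0.0882, 0.0692 and 0.0853). With outlying variances downweighted (robust empirical Bayes) neither score of the cluster passed, at adjusted p = 0.0637 and 0.0719.

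A minority of the cells of cluster 18 carried high scores in cold2. Cells that the clustering placed elsewhere are not in these values. No cell of 372 in TN had an S score above 0.2, which allows a share of up to 0.806%. In the cold2 libraries 6 of 285, 11 of 216, 23 of 161 and 34 of 150 cells did, which are 2.11%, 5.09%, 14.3% and 22.7%, or 11.0% ± 9.33 (SD, n = 4). Every cold2 library was thus above every TN library, over a range of about an order of magnitude. A G2M score above 0.2 was seen in 1 TN cell and in 1, 8, 13 and 14 cells of the cold2 libraries. In the log2 odds of S-high cells, a summary chosen after the data were seen, the difference was 3.73 ± 0.87 (limma, adjusted p = 0.000664). This estimate depends on the 0.5 cells added to each count, because all TN counts were 0, and the same summary of the G2M score gave 2.09 ± 0.90 (limma, adjusted p = 0.432).

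The median cell of cluster 18 rose in S score, and its G2M score did not pass. The median S score over cells rose by 0.0350 ± 0.00927 (limma, adjusted p = 0.0252), whereas the median G2M score had a difference of 0.00880 ± 0.00502 (limma, adjusted p = 0.196). Cells called S or G2M by the authors made up 29.9%, 26.7%, 32.2% and 24.1% of the cluster in TN and 36.5%, 33.8%, 55.9% and 62.7% in cold2, again without overlap. In endothelial cluster 22 the mean S scores were -0.0625, -0.0486, -0.0531 and -0.0455 in TN and -0.0349, -0.0517, -0.0252 and -0.0170 in cold2, and the difference of 0.0202 ± 0.00731 did not pass (limma, adjusted p = 0.0534).

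Depth moved with the high scores within libraries. The S-high cells of cluster 18 had medians of 5817, 5781, 14757 and 6696 UMIs in the 4 cold2 libraries, against 4294, 3979, 3452 and 4381 for the other cells. The medians of the whole cluster were 3960, 6857, 4045 and 2941 UMIs in TN and 4421, 4162, 4459 and 5141 in cold2, and they overlapped. Among cells of 2500 to 7500 UMIs, 13 to 169 per library, the S scores ran from -0.0548 to -0.0124 in TN and from -0.0201 to 0.0587 in cold2. The groups overlapped there, and the difference was 0.0483 (two-sided exact permutation test, p = 0.0571). Cells could not be thinned to one number of UMIs, and the part of depth in the result beyond these values was not tested.

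Pooled over libraries, the other conditions of the series had few such cells in cluster 18. At 22 °C, 6 of 476 cells had an S score above 0.2, with 0% to 7.14% per library, and after 7 days at 5 °C 1 of 392 did, with 0% to 0.917% per library. Their mean S scores ran from -0.0442 to 0.0187 and from -0.0579 to -0.0312. The cold2 libraries ran from 2.11% to 22.7% in share and from -0.0139 to 0.0841 in mean S score. The 22 °C range overlapped cold2 in both. The cold2 range lay above the 7-day range without overlap. These are given as levels and were not tested.

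The named endothelial cells, which are in part the same cells with other score values, gave a similar picture without cold2 replicate 1. In the EC class 0 of 472, 0 of 72, 0 of 95 and 1 of 174 TN cells had an S score above 0.2, against 15 of 353, 23 of 243 and 40 of 189 cold2 cells. The shares in cold2 were 4.25%, 9.47% and 21.2%, against at most 0.575% in TN. The class mean of the G2M score was 0.00642, 0.000342, 0.00264 and 0.00499 in TN and 0.0249, 0.0479 and 0.0753 in cold2. It rose by 0.0457 ± 0.0111 (limma over the 5 classes with enough cells, an alternative added after the data were seen, adjusted p = 0.0262). The class mean of the S score differed by 0.0455 ± 0.0170 and did not pass (adjusted p = 0.0798), with cold2 replicate 2 at 0.0174 inside the TN range of 0.00616 to 0.0184. Complexity of the EC class was 0.878 ± 0.00681 in TN and 0.892 ± 0.00411 in cold2, without overlap. It passed narrowly in the same fit over classes (limma, adjusted p = 0.0498).

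Within the EC class the high-score cells gathered in 2 of its 6 clusters. EC_10 held 57 of the 78 S-high cold2 cells, at 10.4%, 16.1% and 35.7% of its cells in cold2 replicates 2, 3 and 4, and 0 of its 161 TN cells had such a score. EC_28 held 14, at 16.7%, 16.7% and 21.4%, against 1 of 60 TN cells. EC_28 also had 9 of 30, 5 of 18 and 9 of 28 cold2 cells with a G2M score above 0.2, against 2 of 60 TN cells. In EC_11 the counts were 2 of 156 in cold2 and 0 of 306 in TN for the S score, and in EC_23 they were 0 of 54 and 0 of 115. Outside the EC class, ECAP cells also had S scores above 0.2, in 22 of 875 TN cells and 4 of 333 cold2 cells. Per library these were 0% to 8.14% and 0.493% to 7.41%. After 7 days at 5 °C, 8 of 154 ECAP cells had such a score. Neither EC_10 nor EC_28 had 20 cells in every library. The mean S score of EC_10 was 0.00606, 0.0331, 0.0212 and 0.00178 in TN and 0.0396, 0.0911 and 0.154 in cold2, without overlap. With a minimum of 10 cells it could be tested, and its S score differed by 0.0794 ± 0.0242 and its G2M score by 0.0288 ± 0.0109, neither of which passed (limma, adjusted p = 0.0765 and 0.0717). In the make-up of cluster 18, EC_10 was 36.1%, 24.1%, 66.7% and 59.0% of its named TN cells and 35.7%, 62.3% and 69.2% of its named cold2 cells, with overlap. EC_28 was 0.556%, 0%, 0% and 0% of them in TN and 3.02%, 3.62% and 6.67% in cold2, without overlap.

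**Figure D3:**
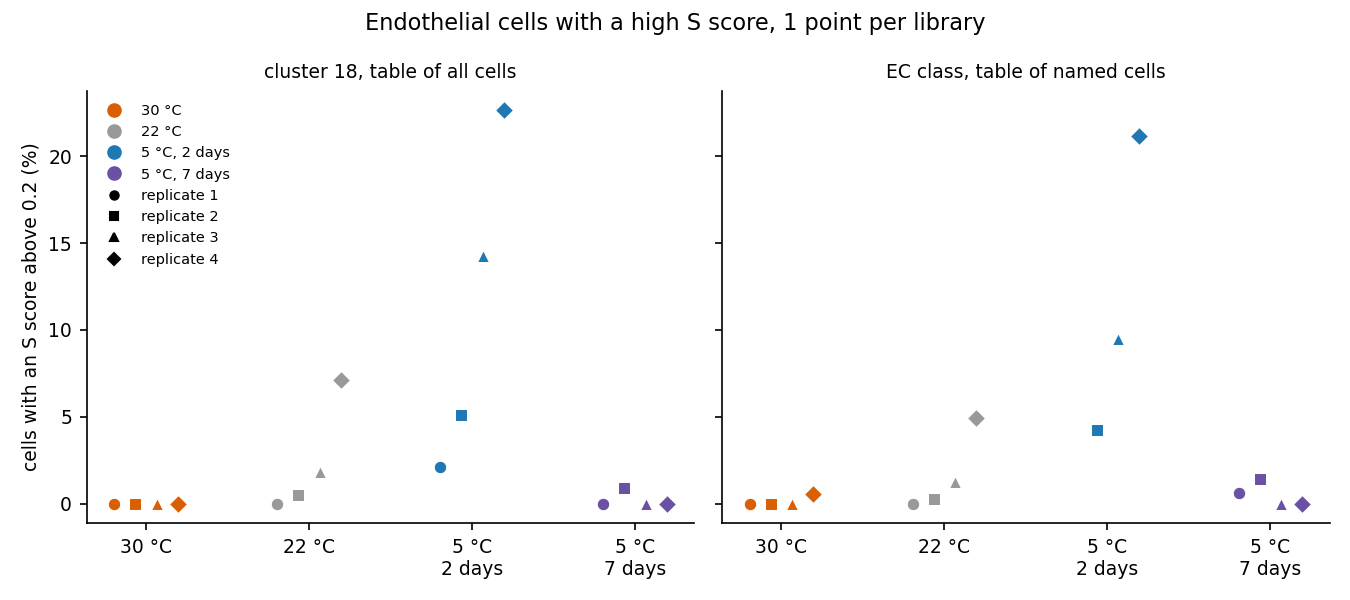
Percentage of cells with an S score above 0.2 in cluster 18 of all cells (left) and in the EC class of named cells (right), 1 point per library, by condition; shape gives the replicate number and cold2 replicate 1 is absent on the right. Cold2 libraries reach 22.7% in cluster 18 and 21.2% in EC, and all TN libraries lie at or below 0.575%.

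Progenitor cells rose in S score, and few of them scored high. Cluster 13 had mean S scores of -0.0789, -0.0790, -0.0758 and -0.0733 in TN and of -0.0643, -0.0649, -0.0411 and -0.0506 in cold2. The groups did not overlap, and the difference was 0.0215 ± 0.00578 (limma, adjusted p = 0.0312), with 0.0144 and 0.0287 within the replicate sets 1 to 2 and 3 to 4. It did not pass without TN replicate 1, TN replicate 2 or cold2 replicate 3. Its G2M score rose by 0.0166 ± 0.00398 (limma, adjusted p = 0.0227), again with every cold2 library above every TN library, and did not pass without TN replicate 3 or cold2 replicate 2. Only 8 of 1050 cold2 cells had an S score above 0.2, against 3 of 658 TN cells, and in the log2 odds of such cells the difference was 0.04 ± 0.87 (limma, adjusted p = 0.962). Its median S score over cells rose by 0.0177 ± 0.00616 (limma, adjusted p = 0.038).

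The named progenitor cluster AP_9 was the 1 of 9 named clusters that passed for the S score (11.1%). Its mean S scores were -0.0289, -0.0242, -0.0291 and -0.0340 in TN and -0.0143, 0.00748 and 0.00174 in cold2. Every cold2 library lay above every TN library. The rise was 0.0274 ± 0.00556 (limma, adjusted p = 0.00166), it passed without any one library, and it did not pass with the cluster's own spread only (adjusted p = 0.0531). Within sets it was 0.0122, where replicate 2 is the only cold2 library, and 0.0362. AP_8, not tested because TN libraries held as few as 7 of its cells, had mean S scores of -0.0571 to -0.0279 in TN and of -0.0137 to 0.00520 in cold2. Over the whole AP class the rise was 0.0240 ± 0.00493 (limma over classes, added, adjusted p = 0.00896). The G2M score of AP_9 differed by -0.00167 ± 0.00295 (limma, adjusted p = 0.649).

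Depth in the progenitors did not pass. Cluster 13 had medians of 7814, 9226, 4838 and 5232 UMIs in TN and of 4463, 6984, 5232 and 3582 in cold2 (-0.41 ± 0.26 log2, limma, adjusted p = 0.555). Among its cells of 2500 to 7500 UMIs, as few as 7 in a library, the S difference was 0.0191 (two-sided exact permutation test, p = 0.0571). Whether depth has a part in the score was not tested beyond this. AP cells after 7 days at 5 °C had mean S scores of -0.0109 to -0.00415, inside the cold2 range of -0.0143 to 0.00277, and at 22 °C they ran from -0.0296 to 0.000346.

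Smooth muscle cells went different ways in the 2 scores and the 2 tables, which give different scores for the same cells and can be read only one at a time. In the table of all cells cluster 9 rose in S score, from -0.0837, -0.0851, -0.0786 and -0.0797 in TN to -0.0676, -0.0745, -0.0628 and -0.0622 in cold2, without overlap. The rise was 0.0150 ± 0.00434 (limma, adjusted p = 0.0312), and it did not pass without TN replicate 1 or 2 or without cold2 replicate 1, 3 or 4. The other smooth muscle clusters, 4 and 10, had S estimates of 0.00618 and 0.00955 that did not pass. In G2M score clusters 4, 9 and 10 had estimates of -0.00418, 0.00300 and -0.00679, none of which passed. In cluster 10 every cold2 library lay below every TN library, from -0.0779 to -0.0705 against -0.0695 to -0.0682, with adjusted p = 0.108 in limma. These scores lie far below 0, and 1 of the 801 cold2 cells of cluster 9 had an S score above 0.2.

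Among named cells the G2M score fell in 3 of 9 clusters (33.3%), all of them smooth muscle, and rose in none. VSM_0 had mean G2M scores of -0.00861, -0.0104, -0.00551 and -0.00466 in TN and of -0.0214, -0.0219 and -0.0154 in cold2, a difference of -0.0123 ± 0.00284 (limma, adjusted p = 0.0137). VSM_5 had -0.00832, -0.0176, -0.00894 and -0.00337 in TN and -0.0259, -0.0304 and -0.0243 in cold2, a difference of -0.0173 ± 0.00376 (limma, adjusted p = 0.0137). VSM_1 had -0.0104, -0.0239, -0.00640 and -0.00784 in TN and -0.0265, -0.0311 and -0.0259 in cold2, a difference of -0.0157 ± 0.00455 (limma, adjusted p = 0.0292). In all 3 the groups did not overlap, as in 4 of the 9 clusters (44.4%), and TN replicate 2 lay closest to the cold2 libraries. All 9 estimates lay below 0, with a median of -0.00966, and the remaining smooth muscle clusters VSM_2 (-0.00966, adjusted p = 0.0644) and VSM_3 (-0.00197, adjusted p = 0.649) did not pass in limma. No smooth muscle cluster passed for the S score, where estimates ran from -0.00666 to 0.00629.

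The calls for the falls in G2M score also changed when single libraries were left out. No cluster passed without TN replicate 3, TN replicate 4, cold2 replicate 2 or cold2 replicate 3, 2 passed without TN replicate 1, and 4 without TN replicate 2 or cold2 replicate 4. In the fits where none passed, the estimates ran from -0.0117 to -0.0111 in VSM_0. They ran from -0.0178 to -0.0152 in VSM_5 and from -0.0164 to -0.0138 in VSM_1. The smooth muscle class as a whole fell by 0.0108 ± 0.00311 (limma over classes, added, adjusted p = 0.0301), from -0.0125, -0.0174, -0.00809 and -0.00991 to -0.0227, -0.0247 and -0.0207. Cells called S or G2M made up 48.0% to 62.9% of VSM cells in TN and 39.7% to 52.8% in cold2, although 0 of 4970 TN cells and 3 of 2352 cold2 cells had a G2M score above 0.2. The falls are thus shifts among cells that score near or below 0. After 7 days at 5 °C the VSM_0 means were lower still, from -0.0477 to -0.0328, and at 22 °C they ran from -0.00843 to 0.00105, levels given without a test. Median depth in these clusters had estimates above 0 that did not pass, for example 9442 ± 2411 UMIs against 7712 ± 2595 in VSM_0, with log2 differences of 0.31, 0.36 and 0.30 in VSM_0, VSM_5 and VSM_1 (limma, adjusted p = 0.696 for each), and the part of depth was not tested.

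**Figure D4:**
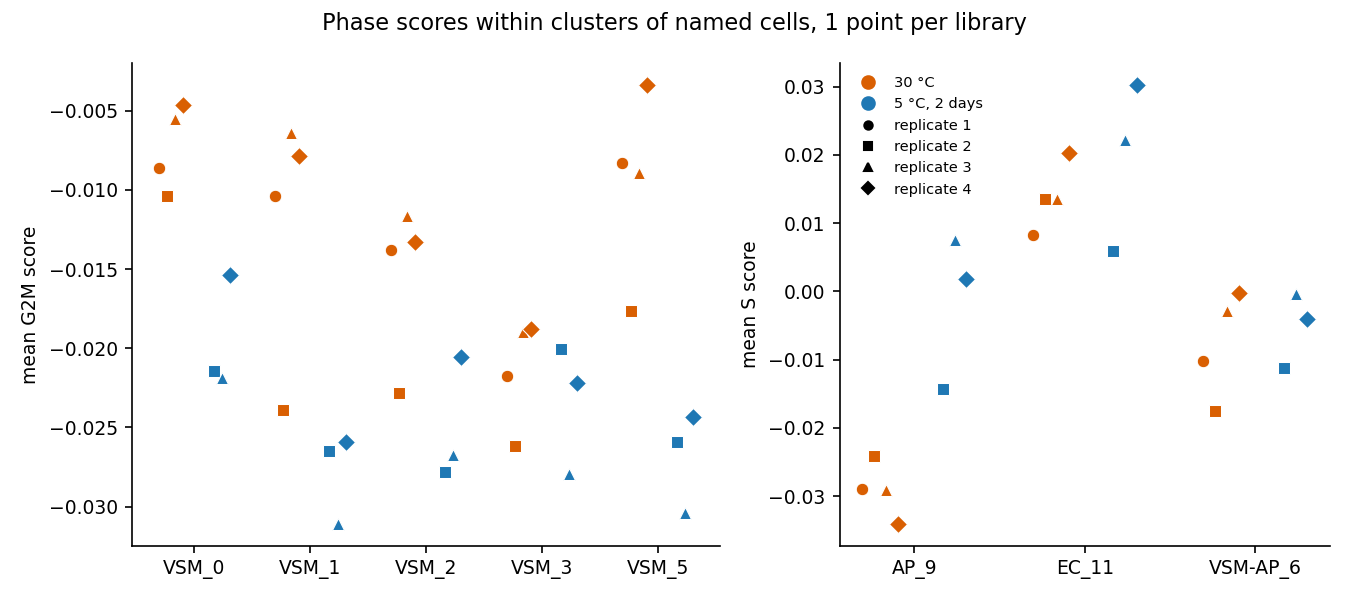
Mean G2M score in the 5 tested smooth muscle clusters (left) and mean S score in AP_9, EC_11 and VSM-AP_6 (right), 1 point per library of named cells; colour gives the condition, shape the replicate number. The cold2 points of VSM_0, VSM_1 and VSM_5 lie below all TN points and those of AP_9 above, while EC_11 and VSM-AP_6 overlap.

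The VSM-AP cluster of all cells, cluster 24, rose in S score by 0.0197 ± 0.00619 (limma, adjusted p = 0.036), from -0.0608, -0.0732, -0.0475 and -0.0514 in TN to -0.0480, -0.0379, -0.0343 and -0.0339, with cold2 replicate 1 just inside the TN range. No cell of it had an S score above 0.2 in either group. That replicate differed from the others in cluster 24, at 9724 UMIs and 29.2% mitochondrial against 1948 to 3134 UMIs and at most 17.6%. In named VSM-AP_6 the S estimate was 0.00258 ± 0.00534 (limma, adjusted p = 0.723).

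Unnamed clusters 19 and 7 rose in S score by 0.0248 ± 0.00729 and 0.0167 ± 0.00577 (limma, adjusted p = 0.0312 and 0.049). In cluster 19 the means were 0.0117, 0.0168, 0.0229 and 0.0287 in TN and 0.0233, 0.0496, 0.0572 and 0.0491 in cold2. Only cold2 replicate 1 lay inside the TN range. The median depths of both clusters did not pass, with 2793 ± 763 against 3901 ± 1184 UMIs in cluster 19 and 2287 ± 367 against 3151 ± 707 in cluster 7 (limma, adjusted p = 0.555). Among cells of 1500 to 3000 UMIs the S difference of cluster 7 was 0.00855 ± 0.00957 and did not pass (limma, adjusted p = 0.389). Cluster 7 lost its call in 10 of 19 alternatives and cluster 19 in 6 of 17.

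Cluster 14 had the smallest p of the G2M comparison. Its mean G2M scores were -0.0104, -0.00768, -0.00793 and -0.0110 in TN and 0.00216, 0.0143, 0.00856 and 0.0171 in cold2, a rise of 0.0198 ± 0.00393 (limma, adjusted p = 0.0132). Its S score moved the other way without passing (-0.00874 ± 0.00457, limma, adjusted p = 0.134). In clusters 2, 5, 15 and 16 the G2M score rose by 0.0166, 0.0131, 0.0143 and 0.0191 (limma, adjusted p = 0.035 for each). Cluster 14 kept its call without any library but cold2 replicate 2, whereas clusters 2, 5, 15 and 16 each lost it without 5 to 7 of the 8 libraries.

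The ratios between the 9 named classes that passed all had Adipo or ECAP cells as one side. Of 36 ratios, 12 passed (33.3%), 8 higher and 4 lower in cold2 (22.2% and 11.1%), and 11 did not overlap between groups (30.6%). All 8 ratios with Adipo (adipocytes) were among the 12 that passed. Adipo cells numbered 5, 1, 0 and 0 in TN and 335, 28 and 491 in cold2. The ratio to VSM cells, for example, was 5 to 2006, 1 to 221, 0 to 954 and 0 to 1789 in TN and 335 to 934, 28 to 689 and 491 to 729 in cold2, a log2 difference of 7.39 ± 1.06 with 0.5 cells added (limma, adjusted p = 6.56e-09). The 8 differences ran from 5.04 to 8.48 in the direction of more Adipo cells. Their size depends on the cells added, since 2 TN libraries had none. With each ratio's own spread in place of a shared one, the adjusted p for Adipo to VSM was 0.0359. Adipo to Lymph_EC (adjusted p = 0.0507) and Adipo to Schwann (adjusted p = 0.0977) then did not pass. Of the cold2 Adipo cells, 88.4%, 100% and 81.7% lay at 20% mitochondrial UMIs or more, and among cells under 20% no ratio of the 36 passed (for Adipo to VSM 4.08 ± 1.65, adjusted p = 0.11).

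The other 4 ratios that passed all had ECAP cells as one side. ECAP cells numbered 258, 150, 191 and 276 in TN and 203, 103 and 27 in cold2. Against Schwann cells they stood at 1.60, 18.8, 11.9 and 10.2 to 1 in TN and at 1.64, 0.505 and 0.409 to 1 in cold2, a log2 difference of -3.44 ± 1.02 (limma, adjusted p = 0.00437). TN replicate 1 lay among the cold2 libraries. Against Lymph_EC cells they stood at 9.21, 50, 13.6 and 13.8 to 1 in TN and at 7.25, 5.15 and 0.321 to 1 in cold2, without overlap (-2.84 ± 1.04, limma, adjusted p = 0.0243). Against Pericyte cells the difference was -2.50 ± 1.02 (limma, adjusted p = 0.0496), and AP against ECAP rose by 3.06 ± 1.04 (limma, adjusted p = 0.0144). All 4 were larger within replicates 3 and 4 (-4.56, -3.38, -3.49 and 4.26) than within replicates 1 and 2 (-1.70, -1.47, -1.48 and 1.39).

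The ECAP ratios depended on single libraries. Without cold2 replicate 4, which had 27 ECAP cells, ECAP to Schwann was -3.06 (limma, adjusted p = 0.0529), ECAP to Lymph_EC -1.44 (adjusted p = 0.264) and ECAP to Pericyte -1.91 (adjusted p = 0.264). ECAP to Lymph_EC also did not pass without TN replicate 2 or 3 (limma, adjusted p = 0.106 and 0.0568), nor ECAP to Pericyte without TN replicate 2, 3 or 4 or cold2 replicate 2 (limma, adjusted p = 0.106, 0.149, 0.182 and 0.128). With each ratio's own spread none of the 4 passed, at adjusted p-values of 0.0977, 0.157 and 0.149 for these 3 and 0.147 for AP to ECAP. The number of ratios that passed was 17 without TN replicate 1 and 8 to 12 without any other library.

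Ratios among the smooth muscle, VSM-AP, EC and AP classes did not pass. VSM to VSM-AP differed by -0.06 ± 1.00, the least of all 36. AP to VSM was 0.273, 0.149, 0.0577 and 0.0330 in TN and 0.391, 0.224 and 0.578 in cold2, with TN replicate 1 above cold2 replicate 3 (1.97 ± 1.01, limma, adjusted p = 0.123). EC to VSM differed by 0.98 ± 1.00 (limma, adjusted p = 0.456). An exact permutation test of a single ratio with 3 against 4 libraries cannot give a p below 0.0571.

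**Figure D5:**
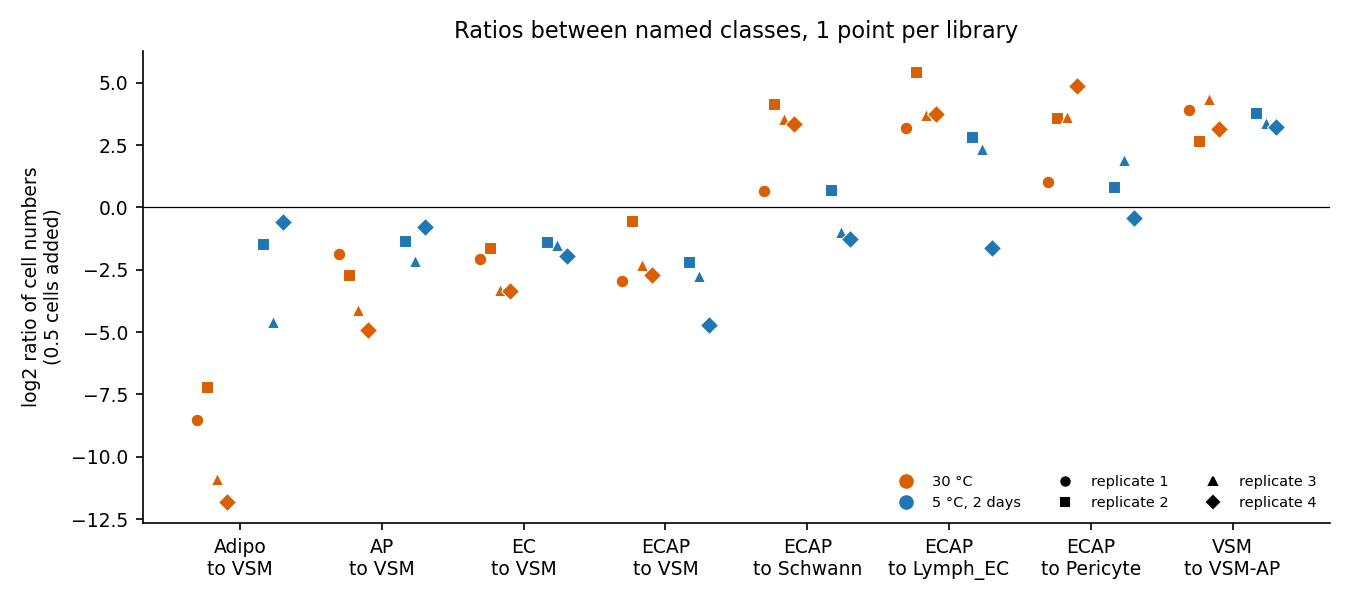
Log2 ratio of cell numbers, with 0.5 cells added to each, for 8 of the 36 pairs of named classes, 1 point per library; colour gives the condition and shape the replicate number. Adipo to VSM separates the groups widely, the ECAP ratios reach lowest in cold2 replicate 4, and VSM to VSM-AP overlaps.

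Inside classes, 3 of 20 tested cluster shares passed (15%), 2 higher (10%) and 1 lower (5%), and in the same 3 (15%) the groups did not overlap. EC_11 made up 38.3%, 31.9%, 38.9% and 37.4% of EC cells in TN and 23.2%, 18.1% and 15.9% in cold2. Its log2 odds fell by 1.30 ± 0.35 (limma, adjusted p = 0.039), with -0.84 and -1.58 within the sets of replicates, and it did not pass without any one of the 7 libraries (adjusted p from 0.0508 to 0.238). EC_10, which held most of the S-high endothelial cells, was 14.6%, 13.9%, 36.8% and 27.0% of EC cells in TN and 21.8%, 48.6% and 44.4% in cold2 (1.08 ± 0.63, limma, adjusted p = 0.355). The rare EC_32 rose by 2.54 ± 0.58 (limma, adjusted p = 0.0241), from 7, 0, 0 and 0 cells in TN to 13, 7 and 7 in cold2. Its size depends on the 0.5 cells added to the TN counts of 0. It did not pass without TN replicate 2 or without cold2 replicate 2, 3 or 4 (limma, adjusted p = 0.0508, 0.0706, 0.0604 and 0.107), nor with its own spread (adjusted p = 0.0623).

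The rare smooth muscle cluster VSM_21 made up 1.30%, 1.36%, 0.839% and 0.838% of VSM cells in TN and 3.75%, 4.79% and 4.53% in cold2. All cold2 values were well above all TN values, on 3 to 26 cells per TN library and 33 to 35 per cold2 library. Its log2 odds rose by 2.01 ± 0.38 (limma, adjusted p = 0.0146), with 1.43 and 2.48 within the sets, and did not pass without cold2 replicate 3 or 4 (adjusted p = 0.0604 and 0.0983). AP_9 made up 52.4%, 60.6%, 58.2% and 42.4% of AP cells in TN and 45.2%, 22.1% and 33.3% in cold2, a difference of -1.22 ± 0.48 that did not pass (limma, adjusted p = 0.172). The number of cluster shares that passed was 0 without cold2 replicate 3 or 4, 1 without TN replicate 2 or cold2 replicate 2, and 2 or 3 without each of the others.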

How the data were processed

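Single-cell 3′ libraries were aligned to mm10 with Cell Ranger 3.0.1, which uses STAR, per the submitters' processing notes. Per the file headers, the authors deposited for each cell its counts of UMIs and genes, the mitochondrial fraction of its UMIs, its log10 gene number as a ratio to its log10 UMI number, an S score and a G2M score with the phase call, a cluster number and, in the second table, a cluster name. Scores differ between the tables for the same cells, so they were compared within a table only. For filters, doublet treatment and cluster settings beyond the header names, no label names the steps. No doublet caller was run and cells were not thinned to equal depth, because the tables hold no gene counts.

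For each cluster with at least 20 cells in every library compared, the median mitochondrial percentage (log2 after adding 0.5), UMIs (log2) and complexity and the mean scores were taken per library. The 8 libraries (7 for named cells) were fitted with limma 3.58.1 in R 4.3.3, two-sided, with Benjamini-Hochberg adjustment within each measure and table and a threshold of 0.05, also for the 36 log2 class ratios and 20 log2 odds within classes, with 0.5 cells added. Errors on differences are standard errors, errors on means are SD. Clusters of one library are not independent, and ratios share classes. Limma's shared spread (114 degrees of freedom for mitochondrial share and depth in all cells, 90.5 for class ratios) thus overstates the precision. The own spread of each cluster or ratio was therefore an added alternative. Library means over clusters were compared with exact permutation tests in scipy 1.17.1. The limma fit was tested on simulated data in which clusters were drawn independently, unlike the clusters of one library. Intervals and limits cover counting error only, and a limit for 0 cells is 3 cells of the total.

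Clusters and classes are named if they passed (beyond 10, the 5 largest rises and 5 largest falls) or, if none did, as the 3 with the smallest p. Score classes above 0.2, whole-class fits, the UMI range of 2500 to 7500, AP to ECAP and the named ratios, clusters and cluster shares that did not pass and lie outside this rule were chosen after their values were seen. The comparison and its lists were chosen with earlier results of these data known. Alternatives covered each library left out, the replicate number as a block, replicates 1 and 2 against 3 and 4, all 4 groups in one fit, cell minimums of 10 and 50, other summaries, cells under 20% mitochondrial and cells of 1500 to 3000 UMIs. Replicate numbers did not pair the libraries, although some correlations followed the sets 1 to 2 and 3 to 4. The main fits leave these sets out.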

Additional observations from a re-analysis of the deposited data

Results flagged for a closer look

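A test for a sample far from its group was applied to 99 groups of 4 libraries and picked out 9, where chance gives about 1 in 20. Over all cells of a library, cold2 replicate 1 stood apart from the other 3 cold2 libraries in mitochondrial share (29.1%), depth (9819 UMIs), complexity (0.817) and mean G2M score (-0.0583). At equal cluster weights TN replicate 2, the library with 1715 cells, stood apart in depth, at 6128 UMIs against 3796 to 4168 in the other TN libraries. Over all named cells of a library, TN replicate 1 had a mean S score of -0.00804, apart from the other TN libraries.

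Within clusters, TN replicate 3 stood apart in the S score of cluster 18, at -0.0284, toward the cold2 values. Cold2 replicate 4 stood apart in the complexity of cluster 12, at 0.897, toward the TN values. TN replicate 2, with 1 Adipo cell, stood apart in the log2 ratio of AP to Adipo cells, at 4.48.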

How the results depend on the processing

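Of the 29 named results that passed, none reversed; over their 457 alternative values 304 kept the call and 153 lost it. For the S score in all cells, 13 clusters passed with a replicate block (12 higher, 1 lower), 10 with the replicate sets as a covariate, 1 with 4 groups in one fit, 2 with at least 50 cells, 0 in cells of 1500 to 3000 UMIs, 1 by odds of scores above 0.2 and 0 with own spreads. For the G2M score the counts were 3 with the block, 2 at 10 cells, 3 at 50 cells, 0 in that UMI window, 0 by odds and 2 with own spreads. At least 10 cells gave 1 cluster lower in UMI depth. In named cells the S score gave 0 with the block (AP_9 adjusted p = 0.0895 in limma), by odds and with own spreads, and 0 under 20% mitochondrial and above the highest UMI floor, where AP_9 had too few cells to be tested. The G2M score gave 0 with the block or by odds and 5 lower with medians. Mitochondrial share gave 1 with the sets or with means. Complexity gave 1 with means or the UMI floor and 2 with whole classes. Ratios gave 0 under 20% mitochondrial and 6 with own spreads, and cluster shares 5 with the block. Same-numbered libraries correlated from -0.0897 to 0.494 in all cells, where 1 of 4 cold2 libraries correlated best with its own number, and from -0.156 to 0.448 in named cells, where 0 of 3 did. In all cells, cold2 replicate 4 correlated at 0.390 with TN replicate 3 and at -0.452 with TN replicate 2. Cold2 replicate 2 correlated at 0.494 with TN replicate 2 and at -0.450 with TN replicate 3. Cold2 replicates 1 and 3 stayed between -0.136 and 0.150 with every TN library. With the sets as a covariate, the S score of clusters 18, 13 and 9 had adjusted p = 0.00706 each (limma). At equal weights the S difference in all cells was 0.0139 with the block (exact permutation p = 0.125) or the sets (exact permutation p = 0.0556), and 0.0132 in the UMI window (exact permutation p = 0.114). The G2M difference in all cells at equal weights was 0.0102 in the main setting, with overlap between the groups (exact permutation p = 0.0571). It was 0.0112 under 20% mitochondrial (exact permutation p = 0.0286) and 0.00309 in the UMI window (exact permutation p = 0.486). The mitochondrial difference turned to 0.0717 in the UMI window, and the named S difference to -0.00156 under 20% mitochondrial. With 1 library left out, the mitochondrial difference of cluster 18 ran from -0.272 to 0.0344, above 0 without cold2 replicate 2 (0.0344) or TN replicate 4 (0.00266), and that of EC_11 from -0.400 to 0.0687, above 0 without cold2 replicate 2. The cause of these changes was not tested. With 1 library left out at a time, counts ran from 0 to 8 for both scores in all cells. In named cells they ran from 1 to 2 for S, 0 to 4 for G2M, 0 to 1 for mitochondrial share and complexity, 8 to 17 for ratios and 0 to 3 for cluster shares. Equal-weight differences then ran, in all and in named cells, from 0.0118 to 0.0160 and -0.000964 to 0.00638 for S, from 0.00883 to 0.0133 and -0.0114 to -0.00608 for G2M, from -0.10 to 0.10 and -0.15 to 0.16 for mitochondrial share, from -0.26 to -0.03 and 0.03 to 0.31 for depth, and from 0.00208 to 0.00723 and -0.00691 to -0.0000890 for complexity. The UMI window and the minimum of 50 cells gave no value for named cells, since no cluster had enough cells. EC_28 and the clusters that hold most cells of cold2 replicate 1 had too few TN cells to be compared.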
